A study of Homo sapiens with 5 samples.

Results

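The tricarboxylic acid (TCA) cycle enzymes described here are the products of 9 genes, *CS*, *IDH3A*, *IDH2*, *OGDH*, *SUCLG1*, *SDHA*, *SDHB*, *FH*, and *MDH2*. They were listed by name as enzymes of the cycle, by a rule that uses no measured value but was set with earlier results of these data known, and all 9 were found among the 27328 genes of the count table. TF-1 is a human erythro-myeloid leukemia cell line that depends on cytokine for growth. The 2 groups of cells compared were derived from it, and both carried lentivirally delivered *Cas9* with an sgRNA. The 2 control pools carried sgCtrl, which targets the *Renilla luciferase* gene that human cells lack, and the 3 knockout pools carried sgMTSS1_1, sgMTSS1_2, or sgMTSS1_3, which target *MTSS1*, a gene involved in actin and membrane dynamics. Each pool combined 4 single-cell clones, so that 1 library stood for 4 selected clones of 1 sgRNA, and no drug treatment was named for the sequenced cells. The comparison asked how loss of *MTSS1* changed mRNA levels in these cells.

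The TCA cycle runs in the mitochondrial matrix, where it oxidizes acetyl groups to carbon dioxide and passes the electrons to the respiratory chain. Citrate synthase starts the cycle by joining acetyl-CoA to oxaloacetate, and malate dehydrogenase closes it by regenerating oxaloacetate. Succinate dehydrogenase is the only step that is also a complex of the respiratory chain (complex II). Several of these enzymes bear on leukemia and other tumors as background: *IDH2* is recurrently mutated in acute myeloid leukemia, and inherited loss of *FH* or of succinate dehydrogenase subunits predisposes to tumors. All 9 enzymes are encoded in the nucleus and imported into mitochondria.

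Of the 9 genes, 1 passed the test for a difference between the groups. *SDHA*, the flavoprotein subunit that oxidizes succinate, was 4.97-fold higher in the knockout pools than in the control pools, on a log2 scale 2.31 with a standard error (SE) of 0.32 (edgeR quasi-likelihood test, adjusted p = 0.00976). None of the other 8 passed the test, and neither did *SDHB*, *SDHC*, or *SDHD*, the subunits that assemble with *SDHA*. Among 14391 genes tested, 600 (4.17%) were called higher and 145 (1.01%) lower at an adjusted p under 0.05. So 1 of 9 called higher and 0 of 9 lower is near that background. No called gene had a log2-fold change between −1 and 1, so changes of that size in the other 8 could go uncalled. The median log2-fold change of the 9 was 0.42 with a range of −0.62 to 2.31, and that of all tested genes was −0.03 with a middle 50% from −0.50 to 0.54. Of the 9 values, 7 were positive and 2 negative, where 6945 of all 14391 were positive, and without knockout pool 1 the median of the 9 was 0.10. In bulk RNA from a pool of clones, more transcript per cell and a larger share of cells with much transcript cannot be told apart.

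Levels are given as CPM, the counts of a gene scaled to a fixed library size after TMM normalization. Values of several pools stand in the order of their numbers, with sgCtrl for the control and sgMTSS1 for the knockout pools. Libraries were made from the 3′ ends of mRNAs with about one read per molecule, so levels of different genes were compared without division by transcript length. Reads that mapped to several places had been removed, which lowers the level of genes whose 3′ end has copies elsewhere in the genome. In the last 500 bases of the annotated transcript, 50-base stretches with another perfect copy in GRCh38 made up 33.9% for *IDH2*, 32.6% for *CS*, 22.2% for *SDHA*, 11.8% for *FH*, and 0% for *IDH3A*, *OGDH*, *SUCLG1*, *SDHB*, and *MDH2*. A library's count total sets the precision: 3 counts corresponded to 0.932 and 0.889 CPM in the control pools and to 0.387, 0.538, and 0.519 CPM in the knockout pools.

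The libraries held 2849979 and 3408827 counts in control pools 1 and 2, and 8854899, 5442639, and 5801636 in knockout pools 1, 2, and 3, so every knockout library was deeper than both control libraries. The share of counts from 87 ribosomal protein genes was 7.56 and 9.31% in sgCtrl pools and 11.9 to 17.7% in knockout pools, highest in knockout pool 1. The share from 33 mitochondrially encoded genes was 13.9 and 8.63% against 6.71 to 7.44%, and the 95% Wilson intervals of these shares were at most 0.0402 percentage points wide on either side, for counting error only. The part of depth and of these shares in the results below was not tested beyond the alternative scalings given at the end. *MTSS1* mRNA measured 203 and 87.4 CPM in sgCtrl pools 1 and 2 and 103, 138, and 49.6 CPM in knockout pools 1, 2, and 3, which overlapped (log2-fold change −0.58, SE 0.47, adjusted p = 0.494). The study places the targets of sgMTSS1_1 and sgMTSS1_2 in the first exon. The reads lie at the 3′ end, where *NDUFB9* overlaps on the opposite strand, so this level does not check the labels. Per the methods, loss of the MTSS1 protein had been seen on immunoblots for the clones of each knockout pool. Of 12 listed erythro-myeloid markers, *CD34*, *CD33*, *KIT*, *GATA1*, *GATA2*, *TFRC*, and *TAL1* had the most counts. The rest of the list was lower, with 2 to 6 counts per library for *MPO*, 12 to 44 for *EPOR*, and 18 to 49 for *CSF2RA*. *SPI1* had 41 to 110 and *CSF2RB* 47 to 177. In edgeR and DESeq2, 0 of 11 tested erythro-myeloid markers passed the test. In edgeR, 2 of them, *CD34* and *TFRC*, had an unadjusted p under 0.05, which 23.3% of all tested genes had. Of the markers of other cell types, *CD14*, *LYZ*, *COL1A1*, and *EPCAM* had at most 5 counts per library, and *CD3D* at most 26, while *PECAM1*, which myeloid progenitors also express, had 389 to 1548.

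Promoter sequences are shown for the enzymes that hold a known motif of nuclear genes for mitochondrial proteins, for *SDHD* as a partner of *SDHA*, and for *IDH3B*. RefSeq promoters (GRCh38.p14, 250 bases before to 50 after the start) matched 8 of the 9 enzymes, all but *OGDH*, and 7 of the 8 other cycle genes. The letters searched on both strands were CCGGAAGT, bound by ETS factors such as GABPA, GCATGCGC, bound by NRF1, and AAGATGGCG, bound by YY1. They occurred in 4.14%, 3.05%, and 1.75% of all 35116 promoters, respectively. These shares count single promoters, whereas a cycle gene was counted when any promoter given for it held the letters. Among the enzymes, *MDH2* held the ETS motif at 2 places and *SDHB* held the NRF1 and the YY1 motif, while the promoters of *CS*, *IDH3A*, *IDH2*, *SUCLG1*, *SDHA*, and *FH* held none of these letters. Among the other cycle genes, the ETS motif was in *IDH3B*, *SDHD*, and *DLST*, the NRF1 motif in *SDHD* and *DLD*, and the YY1 motif in *SUCLG2*. The windows below run 5′ to 3′ on the strand of the gene with the motif in capitals. The NRF1 motif of *SDHD* also matched the opposite strand at an overlapping place.
MDH2, chr7:76047982-76048011, plus strand: ctttccgactcCCGGAAGTggccgtgatct
MDH2, chr7:76048026-76048055, plus strand: ggcgagcgcgaCCGGAAGTccggtcactct
SDHB, chr1:17054214-17054243, minus strand: aagccaaatggGCATGCGCcgctactgcgc
SDHB, chr1:17054003-17054032, minus strand: gtcaggagccAAGATGGCGgcggtggtcgc
SDHD, chr11:112086754-112086783, plus strand: gctgtgtttgcGCATGCGCgacgggtgtgc
SDHD, chr11:112086784-112086813, plus strand: accgcctctcgACTTCCGGttcacccagca
IDH3B, chr20:2664238-2664267, minus strand: ctcagtacaggCCGGAAGTcggggtacggg
From the start that RefSeq gives, which for *MDH2* lies downstream of the GENCODE start given with its values, the first *MDH2* motif began 113 bases and the second 69 bases upstream, and that of *IDH3B* 40 bases upstream. A match is a run of letters and no measure of binding, and a promoter without one may still be bound.

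**Figure D1:**
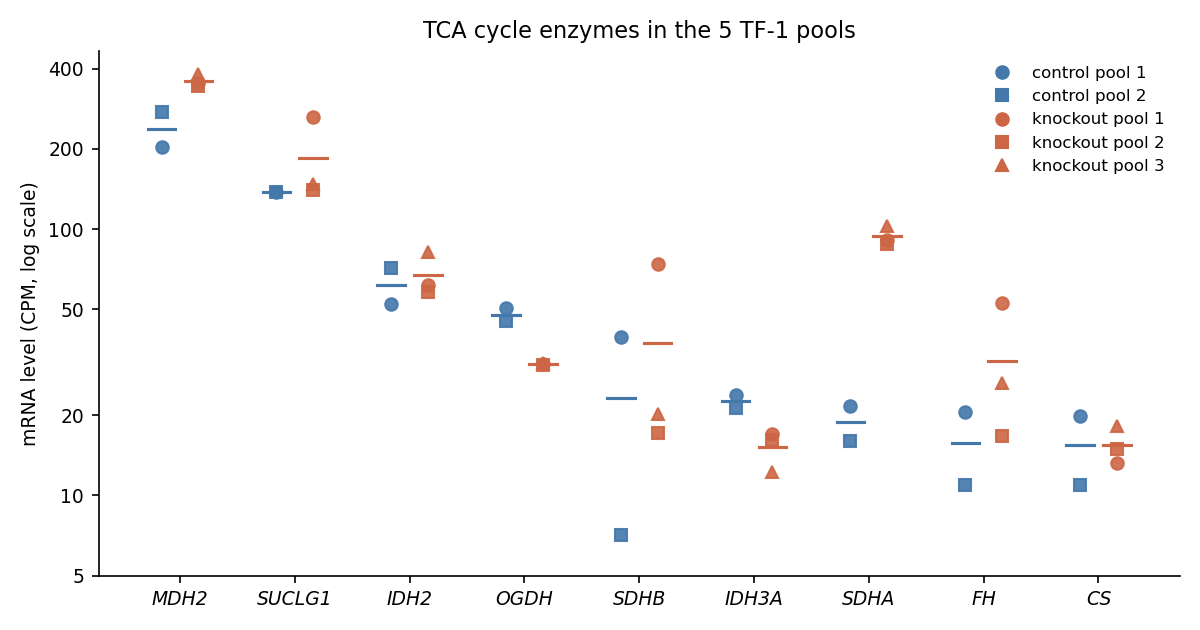
mRNA level of each enzyme in the 5 TF-1 pools (y axis, CPM on a log scale; one symbol per pool, horizontal bars for group means; blue, control; orange, knockout). *SDHA* is the gene whose groups lie farthest apart, at 16 and 21.8 CPM in sgCtrl pools and 88.1 to 103 CPM in sgMTSS1 pools, while *SDHB* spreads from 7.11 to 39.5 CPM within the control pools alone.

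In the control pools, the enzymes ranked *MDH2*, *SUCLG1*, *IDH2*, *OGDH*, *SDHB*, *IDH3A*, *SDHA*, *FH*, and *CS* by mean level. The first 4 did not overlap with their neighbours in this order, since *MDH2* reached 203 and 274 CPM, *SUCLG1* 137 and 138, *IDH2* 52.5 and 71.1, and *OGDH* 50.3 and 45.0. Below them, *SDHB* spanned the values of the other 4, and each of the neighbours *IDH3A*, *SDHA*, *FH*, and *CS* overlapped with the next. In the knockout pools the order was *MDH2*, *SUCLG1*, *SDHA*, *IDH2*, *SDHB*, *FH*, *OGDH*, *CS*, and *IDH3A*. *SDHA* thus stood 7th of 9 in sgCtrl pools and 3rd in knockout pools, where its lowest value, 88.1 CPM, lay above the highest of *IDH2*, 82.3 CPM. From *IDH2* to *OGDH*, and again for *CS* and *IDH3A*, neighbouring genes overlapped across the knockout pools. The summed level of all 9 was 568 and 595 CPM in sgCtrl pools and 957, 727, and 824 CPM in sgMTSS1 pools 1, 2, and 3. Without *SDHA* the sums were 547 and 579 CPM against 867, 639, and 721 CPM, so that the groups still did not overlap and *MDH2* and *SUCLG1* made up most of each sum.

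*CS*, which encodes citrate synthase (chromosome 12, 56271699 to 56300391, minus strand), was low in every pool. Control pools 1 and 2 held 19.9 and 11.0 CPM, and knockout pools 1, 2, and 3 held 13.3, 14.9, and 18.2 CPM. The control pools enclosed all 3 knockout pools, and the log2-fold change was 0.00 with a 95% confidence interval of −0.84 to 0.84.

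Isocitrate is oxidized by 2 kinds of mitochondrial enzyme, the NAD-dependent IDH3, built from the catalytic subunit of *IDH3A* with those of *IDH3B* and *IDH3G*, and the NADP-dependent IDH2. *IDH3A* (chromosome 15, 78131498 to 78171945, plus strand) measured 23.9 and 21.3 CPM in sgCtrl pools and 17.0, 16.1, and 12.3 CPM in sgMTSS1 pools. The groups did not overlap, with the knockout pools lower, yet the log2-fold change of −0.58 had an interval of −1.30 to 0.15 (adjusted p = 0.319). *IDH3B* went the other way, with 189 and 171 CPM in sgCtrl pools and 371, 248, and 397 CPM in sgMTSS1 pools. The log2-fold change of 0.91 (interval 0.18 to 1.65) had an adjusted p of 0.135 and missed the threshold. *IDH3G* overlapped between groups, at 69.0 and 40.0 CPM against 48.3, 47.0, and 58.1 CPM.

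The counts of *IDH3B* per count of *IDH3A* were 7.9 and 8.0 in the control pools and 21.8, 15.3, and 32.3 in knockout pools 1, 2, and 3. This ratio within a library does not depend on scaling. It was higher in each knockout pool than in either control pool. That follows from *IDH3B* lying above and *IDH3A* below both control pools, and it is no further evidence. The ratios of *IDH2* to *IDH1*, *SUCLG2* to *SUCLA2*, and *PDHA1* to *PDHB* overlapped between groups. With 2 against 3 pools an exact permutation test cannot give a one-sided p below 0.1, so no ratio here can pass 0.05. *IDH3A* shares its locus with *CIB2* and *ACSBG1* on the opposite strand, as *CS*, *IDH3G*, *DLD*, and *SUCLA2* do with other genes. Whether the counting used strand is not given in the sources used here, and without it such reads cannot be told apart. *IDH3A* also overlaps a further gene on its own strand, which strand would not separate. *IDH2* (chromosome 15, 90083045 to 90102477, minus strand) overlapped between groups, with 52.5 and 71.1 CPM in sgCtrl pools and 61.9, 58.0, and 82.3 CPM in sgMTSS1 pools (log2-fold change 0.12, interval −0.57 to 0.82).

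The 2-oxoglutarate dehydrogenase complex follows, with *OGDH* encoding its first subunit, *DLST* the second, and *DLD* the third, which other dehydrogenase complexes share. *OGDH* (chromosome 7, 44606572 to 44709066, plus strand) measured 50.3 and 45.0 CPM in sgCtrl pools and 31.1, 30.9, and 31.3 CPM in sgMTSS1 pools. The knockout pools were nearly equal and all below the control pools. The log2-fold change was −0.62 with an interval of −1.24 to 0.00 and an adjusted p of 0.217, so the difference did not pass the test. *DLST* was also lower in each knockout pool, at 11.5 and 8.59 CPM against 7.73, 7.89, and 8.13 CPM (log2-fold change −0.34, adjusted p = 0.622). *DLD* overlapped, at 94.8 and 105 CPM against 131, 89.2, and 93.4 CPM.

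*SUCLG1* encodes the alpha subunit of succinyl-CoA synthetase, the step that makes a nucleoside triphosphate directly (chromosome 2, 84423528 to 84460045, minus strand). Control pools held 137 and 138 CPM, and knockout pools 1, 2, and 3 held 264, 141, and 148 CPM. Knockout pool 1 alone stood far above the others, and knockout pools 2 and 3 lay only just above the control pools. The log2-fold change was 0.42 (interval −0.37 to 1.21, adjusted p = 0.514). The beta subunits that pair with it, *SUCLA2* for ADP and *SUCLG2* for GDP, overlapped between groups with log2-fold changes of 0.45 and 0.14.

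*SDHA* (chromosome 5, 218303 to 257082, plus strand) carried 70 and 54 counts in sgCtrl pools and 704, 491, and 594 in knockout pools 1, 2, and 3. After scaling, these were 21.8 and 16 CPM against 90.8, 88.1, and 103 CPM, or 18.9 ± 4.07 (SD, n = 2) against 93.9 ± 7.79 CPM (SD, n = 3). The 3 sgRNAs gave nearly the same level, and the lowest knockout pool lay far above the higher control pool. The interval of the log2-fold change was 1.59 to 3.03. By its p-value *SDHA* was 54th among the 14391 tested genes, and by its fold change 306th of the 600 called higher. The call held in 15 of 15 alternative analyses, with adjusted p-values from 1.9e-08 to 0.0392. In 13 of these the log2-fold changes lay between 1.94 and 2.46. The other two kept a single control library, which is then assumed to vary like the knockout pools, and gave 2.56 and 2.14.

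*SDHA* has near-identical pseudogenes, of which *SDHAP1*, *SDHAP3*, and *SDHAP4* were in the table. Together they held 27 and 19 counts in sgCtrl pools and 38, 31, and 40 in knockout pools. Of the sum of *SDHA* and these pseudogenes, this was 27 of 97 and 19 of 73 counts against 38 of 742, 31 of 522, and 40 of 634. The pseudogenes differed among themselves, since *SDHAP1* held 3 and 6 counts against 23, 10, and 17, and *SDHAP4* held 23 and 13 against 11, 19, and 22. With the counts of *SDHA* and these pseudogenes added into one, an alternative chosen after the data were seen, the log2-fold change was 1.94 (adjusted p = 0.0140). A readthrough gene on the same strand held 0 to 3 counts per library.

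*SDHB*, the iron-sulfur subunit that takes electrons from *SDHA* (chromosome 1, 17018664 to 17054032, minus strand), varied most among the 9. Control pools 1 and 2 held 39.5 and 7.11 CPM, and knockout pools 1, 2, and 3 held 74.1, 17.2, and 20.2 CPM. Pool 1 was the high pool in both groups, 5.55-fold above pool 2 among controls and 4.30-fold among knockouts. The control libraries held 127 and 24 counts of it. The groups overlapped (log2-fold change 0.68, interval −1.02 to 2.39, adjusted p = 0.636), and without knockout pool 1 the value turned to −0.31.

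The membrane anchors *SDHC* and *SDHD*, which hold the complex in the inner membrane and bind ubiquinone, were low throughout. *SDHC* measured 15.5 and 13.3 CPM in sgCtrl pools and 16.5, 13.1, and 15.2 CPM in sgMTSS1 pools, with a log2-fold change of 0.05 (interval −0.69 to 0.79). *SDHD* measured 5.28 and 4.44 CPM against 5.80, 3.59, and 2.59 CPM, with a log2-fold change of −0.27 (interval −1.41 to 0.87). Neither interval reached the 1.59 at which that of *SDHA* began. Copies of the 3′ end elsewhere in the genome were common for *SDHC*, where they made up 66.3% of the 50-base stretches, and for *SDHD* with 32.6%.

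Within each library, *SDHA* had 1.40 and 1.20 counts per count of *SDHC* in sgCtrl pools and 5.50, 6.73, and 6.75 in knockout pools. Per count of *SDHD* it had 4.12 and 3.60 against 15.6, 24.6, and 39.6. *SDHD* had only 17 and 15 counts in sgCtrl pools and 45, 20, and 15 in knockout pools, so ratios to it are imprecise. Both ratios were separated between the groups whatever the scaling. Since *SDHC* and *SDHD* themselves overlapped, this restates the difference of *SDHA*. Per count of *SDHB*, in contrast, the ratios were 0.551 and 2.25 against 1.22, 5.11, and 5.08 and overlapped, with the pool numbered 1 lowest in each group. Where 23.3% of all tested genes had an unadjusted p under 0.05 in edgeR, 1 of the 4 assembly factors of the complex did. All 4 were tested, and edgeR and DESeq2 called 0 of them. Of these, *SDHAF4* helps the flavinylated *SDHA* join *SDHB*. It measured 2.8 and 2.37 CPM in sgCtrl pools and 10.1, 4.66, and 5.36 CPM in sgMTSS1 pools (log2-fold change 1.38, adjusted p = 0.169). These levels rest on only 9 and 8 counts in sgCtrl pools, against 78, 26, and 31 in sgMTSS1 pools. *SDHAF2*, which promotes attachment of the flavin to *SDHA*, measured 20.2 and 21.9 CPM against 33.6, 24.9, and 31.8 CPM (log2-fold change 0.52, adjusted p = 0.354).

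**Figure D2:**
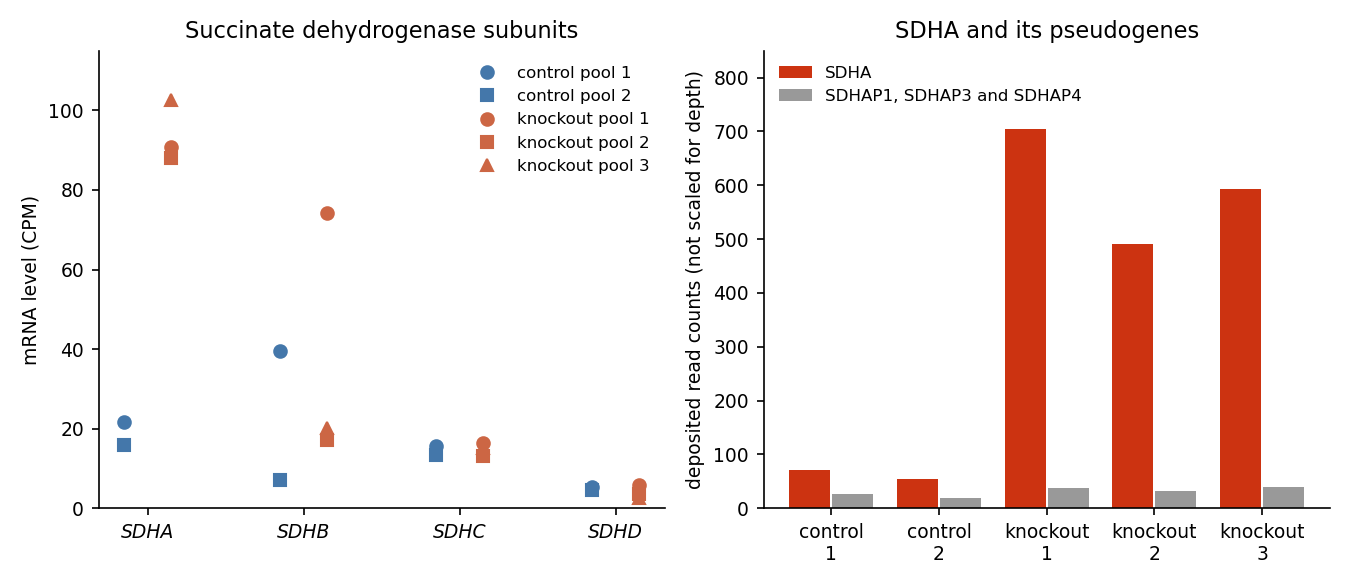
Left, mRNA level of the 4 succinate dehydrogenase subunits in each pool (y axis, CPM; one symbol per pool). Right, deposited read counts of *SDHA* (red) and of its 3 pseudogenes together (gray) in each library, not scaled for depth: *SDHA* has 54 to 70 counts in control and 491 to 704 in knockout libraries, and the pseudogenes have 19 to 40 in all 5.

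*FH* encodes fumarase, which hydrates fumarate to malate (chromosome 1, 241497511 to 241519799, minus strand). It measured 20.5 and 11.0 CPM in sgCtrl pools and 52.6, 16.7, and 26.5 CPM in sgMTSS1 pools. Knockout pool 2 lay between the control pools, and the log2-fold change of 1.03 had an interval of −0.12 to 2.17 (adjusted p = 0.267). It was 0.46 without knockout pool 1 and 1.56 without control pool 1. As with *SDHB*, pool 1 exceeded pool 2 in both groups, by 1.87-fold and 3.15-fold.

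*MDH2*, the mitochondrial malate dehydrogenase (chromosome 7, 76048051 to 76067508, plus strand), was the most abundant of the 9 in every pool. Control pools held 203 and 274 CPM and knockout pools 353, 344, and 382 CPM, with no overlap. The log2-fold change was 0.59 (SE 0.30, interval −0.09 to 1.28), and the adjusted p of 0.277 missed the threshold. Per count of its cytosolic counterpart *MDH1*, *MDH2* had 1.77 and 4.07 counts in sgCtrl pools and 3.47, 5.20, and 5.90 in knockout pools, which overlapped.

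All 3 knockout pools lay above both control pools for 3 of the 9 enzymes, *SUCLG1*, *SDHA*, and *MDH2*, where 22.2% of all tested genes did so. They lay below both for 2 of the 9, *IDH3A* and *OGDH*, where 19.3% of all tested genes did so. The largest and smallest log2-fold changes of the 9 apart from *SDHA* were 1.03 for *FH* and −0.62 for *OGDH*. In edgeR, 23.3% of all tested genes had an unadjusted p under 0.05, as did 1, *IDH3B*, of 8 other subunits and enzymes of the cycle. Of these 8, 0 passed the test in edgeR, DESeq2, or limma-voom. Their median log2-fold change was 0.06, with a range of −0.34 to 0.91 and with 5 positive and 3 negative values.

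**Figure D3:**
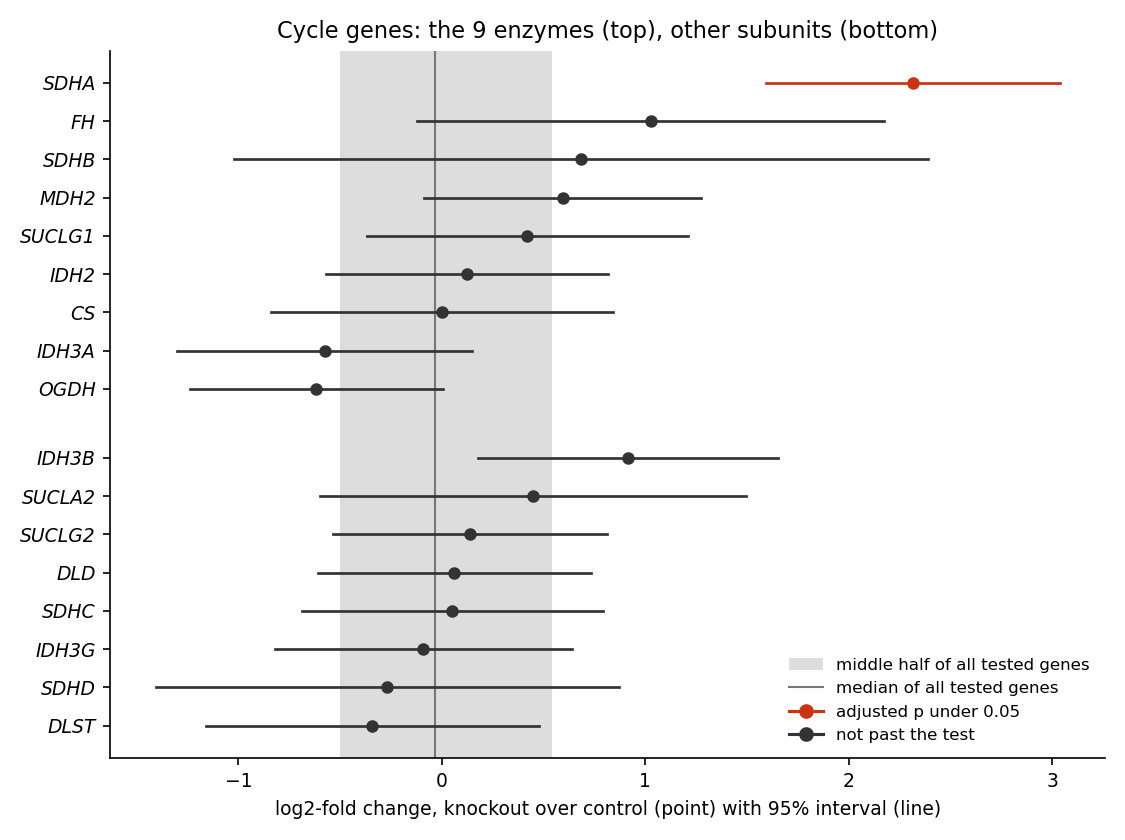
Log2-fold change of knockout over control pools (points) with its 95% interval (lines) for the 9 enzymes (top) and 8 other cycle genes (bottom), beside the median (gray line) and middle 50% (gray band, −0.50 to 0.54) of all tested genes. *SDHA* at 2.31 (red) is the only one past an adjusted p of 0.05, and the interval of *IDH3B*, 0.18 to 1.65, lies above 0 without passing it.

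**Figure D4:**
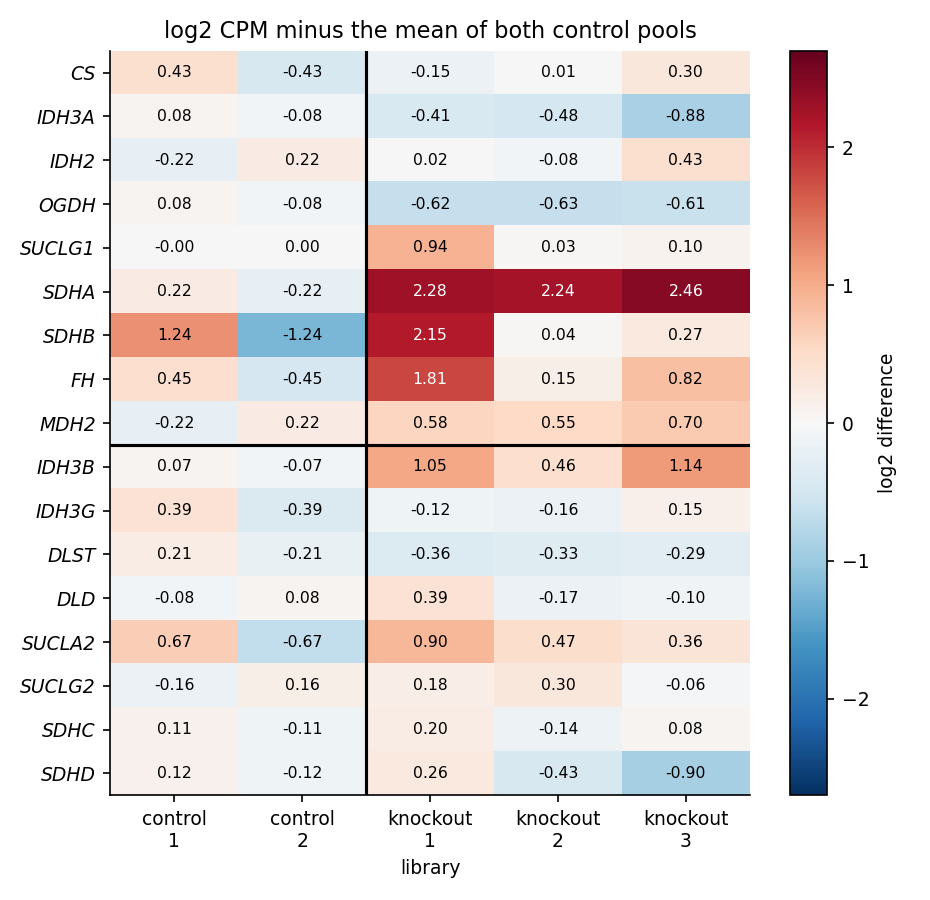
Level of each cycle gene in each library as the difference of log2 CPM from the mean of both control pools (color and printed value; rows above the line, the 9 enzymes; rows below, other cycle genes). *SDHA* lies 2.24 to 2.46 above that mean in all knockout pools, whereas *SDHB* and *FH* lie highest in knockout pool 1, at 2.15 and 1.81, and differ between the control pools.

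Genes that feed the cycle were described from lists chosen by their role. Pyruvate enters through its mitochondrial carrier and pyruvate dehydrogenase. Of 14 such genes, edgeR called 0, beside 745 of all 14391 tested genes, and their median log2-fold change was 0.33. An unadjusted p under 0.05 was found for 3 of the 14, where 23.3% of all tested genes had one. *PDHA1*, the catalytic subunit of pyruvate dehydrogenase, measured 102 and 167 CPM in sgCtrl pools and 315, 255, and 266 CPM in sgMTSS1 pools (log2-fold change 1.05, SE 0.33, adjusted p = 0.0982). *PDK2*, a kinase that inhibits that enzyme, measured 2.49 and 1.78 CPM against 8.77, 6.82, and 6.40 CPM (log2-fold change 1.78, SE 0.49, adjusted p = 0.0674). These levels rest on only 8 and 6 counts in sgCtrl pools, against 68, 38, and 37 in sgMTSS1 pools. *PDHA1* and *PDK2* were separated between groups without passing the threshold. All knockout pools lay above both control pools for 3 of the 14 and below both for 5, beside 22.2% and 19.3% of all tested genes. DESeq2 called 1 gene of the list, *PDHA1* (adjusted p = 0.0465), beside 1381 of all 14391 tested genes. The third gene at an unadjusted p under 0.05, named after its values were seen, was *MPC1*, a subunit of the mitochondrial pyruvate carrier. It went the other way, also without overlap, with 112 and 178 CPM against 97.6, 51.9, and 60.9 CPM (log2-fold change −1.05, SE 0.36, adjusted p = 0.118).

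Glutamate and aspartate exchange carbon with the cycle through transaminases, and 0 of 7 tested genes of this list were called by edgeR. An unadjusted p under 0.05 was found for 2 of the 7, beside 23.3% of all tested genes. *GOT1*, the cytosolic aspartate transaminase, measured 37.6 and 38.8 CPM in sgCtrl pools and 92.9, 70.9, and 76.3 CPM in sgMTSS1 pools (log2-fold change 1.07, SE 0.30, adjusted p = 0.0683). *PCK2*, which draws oxaloacetate from the cycle inside mitochondria, measured 15.8 and 14.5 CPM against 30.2, 22.6, and 34.8 CPM (log2-fold change 0.94, adjusted p = 0.132). DESeq2 called 1 gene of this list, *GOT1* (adjusted p = 0.0280), beside 1381 of all 14391 tested genes. *ASNS*, which uses aspartate, had 0 to 4 counts and was not tested.

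A further list of 10 genes held cytosolic counterparts, genes of citrate use, the malic enzymes, and mitochondrial carriers such as *SLC25A10* and *SLC25A11*. In the edgeR test 0 of the 10 were called and 0 had an unadjusted p under 0.05, beside 23.3% of all tested genes. DESeq2 also called 0. Of the 10 log2-fold changes, 9 were negative, with a median of −0.37, where 7446 of all 14391 were negative and the median was −0.03. The malic enzymes *ME2* and *ME3*, which convert malate to pyruvate in mitochondria, had the smallest p-values. *ME2* measured 79.9 and 90.7 CPM in sgCtrl pools and 55.6, 62.6, and 56.4 CPM in sgMTSS1 pools (log2-fold change −0.55, adjusted p = 0.262). *ME3* measured 14.3 and 9.48 CPM against 6.96, 8.61, and 8.13 CPM (log2-fold change −0.59, adjusted p = 0.381).

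The cycle depends on cofactors made in mitochondria, lipoate for 2-oxoglutarate dehydrogenase and iron-sulfur clusters for *SDHB*. Of 12 genes of this supply, 1 was called higher and 0 lower, beside 4.17% and 1.01% of all tested genes. *NFS1*, the cysteine desulfurase that provides sulfur for these clusters, measured 5.90 and 3.56 CPM in sgCtrl pools and 24.1, 20.8, and 24.7 CPM in sgMTSS1 pools, from 19 and 12 against 187, 116, and 143 counts. It was 4.90-fold higher in the knockout pools (log2-fold change 2.29, SE 0.39, adjusted p = 0.0159). The call was lost without knockout pool 1 (adjusted p = 0.0647) and without knockout pool 3 (adjusted p = 0.0554), where the log2-fold change stayed at 2.27 and 2.29. *NFS1* overlaps *ROMO1* on the opposite strand, and reads of the pair cannot be told apart if counting ignored strand. The same limit holds for *HSCB*, *PDHA1*, *PDK2*, *PCK2*, and *ME3*, which also overlap genes on the opposite strand. *HSCB*, a chaperone of cluster transfer, measured 5.59 and 8.0 CPM against 16.6, 9.51, and 15.2 CPM (log2-fold change 1.02, adjusted p = 0.179).

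Averaged over the 9 enzymes, log2(CPM + 1) centred on each gene's mean was −0.05 and −0.47 in sgCtrl pools 1 and 2 and 0.45, −0.06, and 0.13 in knockout pools 1, 2, and 3. The average was highest in knockout pool 1 and lowest in control pool 2, so the pools of each group differed by about as much as the groups. The genes outside the lists with the most similar profile over the 5 libraries, by Euclidean distance, were *MND1* (0.0800), *SRSF10* (0.0927), and *RCHY1* (0.0962). Their own log2-fold changes were 0.40, 0.44, and 0.53, and none passed the test.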

How the data were processed

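The deposited table held raw read counts per gene for 5 libraries. Per the methods and labels, the authors isolated RNA from pooled clones, prepared 3′ libraries (QuantSeq FWD, 50-base single reads), mapped reads with HISAT2 v2.1.0 to GRCh38, and removed reads without a unique position with SAMtools v1.10. The counting program, its annotation, and its use of strand are not given in the sources used here. Further pools that the authors set aside as outliers were not analysed here.

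Counts were tested with edgeR 4.0.16 in R 4.3.3 (TMM, filterByExpr with a minimum count of 10, quasi-likelihood test, Benjamini-Hochberg adjustment over all 14391 tested genes), with knockout against control as the only term. Adjusted p under 0.05 was taken as called. Levels are CPM with TMM library sizes. DESeq2 1.42.0 and limma 3.58.1 served as alternatives, beside other scalings, filters, thinning, and leaving out each library. The scripts were tested on simulated data. Per the methods, each pool of different clones was grown and extracted as such, so p-values measure the spread between pools of 1 cell line. They cover only the pools kept, after a control pool and a knockout pool far from their group's centre in expression had been set aside. The spread between kept pools may be smaller than that between all pools, and p-values may be too small for that reason. Positions are from GENCODE (GRCh38). Total counts ranged from 2849979 to 8854899 per library. Wilson intervals cover counting error only, and those of log2-fold changes include the spread between pools.

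The enzymes and gene lists were chosen with earlier results of these data known. Named are the 9 enzymes, 8 other cycle genes, from each further list the called genes and, where fewer than 2 were called, the 2 with the smallest p, the 3 genes nearest in profile, *MTSS1*, and, after its values were seen, *MPC1*. Numbers 1 and 2 occur in both groups, but nothing ties them to shared handling. A pair of listed genes is not reported here.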

Additional observations from a re-analysis of the deposited data

How the results depend on the processing

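The number of enzymes called, 1, and of other cycle genes called, 0, was the same in all alternatives. The number of all genes called was 745 and became 1381 with DESeq2, 1374 without a filter on low counts, and 111 to 1340 when each library was left out in turn (111 without knockout pool 1, 191 without knockout pool 3, 347 without knockout pool 2, and 1340 without control pool 1). The median log2-fold change of the 9 enzymes stayed between 0.26 and 0.57 otherwise, and was 0.10 to 0.62 with a library left out, with the low value again without knockout pool 1. The summed level was 255 CPM higher in the knockout pools and 186 to 327 CPM higher in the alternatives run, which were scalings, thinning, and leaving out a library. No enzyme other than *SDHA* was called in any setting.

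Some values changed sign without passing the test, most of them near 0. *CS* was −0.0080 with DESeq2 and with RLE scaling, −0.15 with library size alone, −0.13 with thinned libraries, and −0.34 to 0.50 with a library left out. *IDH2* was −0.047 with thinned libraries and −0.065 to 0.39 with a library left out. With library size alone, which moved the median of all genes from −0.03 to −0.17, *DLD* was −0.084 and *SDHC* was −0.096. Without a filter *IDH3G* was 0.056. With a library left out, *SDHB* ranged from −0.31 to 2.41, *DLD* from −0.13 to 0.20, *SDHC* from −0.027 to 0.18, *IDH3G* from −0.40 to 0.37, *SUCLA2* from −0.046 to 1.28, *SDHD* from −0.65 to 0.0018, and *MTSS1* from −1.04 to 0.16. *GOT1* passed the threshold with DESeq2 and without a filter, *PDHA1* with DESeq2 and without control pool 2, and *PDK2* without a filter. Leaving out a control pool leaves 1 control library, which is assumed to vary like the knockout pools. The cause of these changes was not tested.

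With pool number as a replicate block, 1077 genes were called and *SDHA* had a log2-fold change of 2.26 (adjusted p = 0.000355). The median of the enzymes was 0.49, and *CS* and *IDH2* were −0.085 and −0.030. Knockout pool 3 has no control pool of its number, so this fit compared only pools 1 and 2 of each group. Little was left to estimate the spread, so its smaller p-value is not stronger evidence. The differences between numbers 1 and 2 correlated at 0.178 between the groups across genes, with only 2 shared numbers, so pairing is not established. The small depth of the control libraries limits the lowest genes, such as *SDHD* and *SUCLA2*.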
